A study of Mus musculus with 37 samples.

Results

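The genes described here are 8 genes of heme metabolism in mouse brown adipose tissue. *Alas1*, *Alas2*, *Uros*, *Urod*, *Cpox*, *Ppox* and *Fech* make heme, and *Hmox1* breaks it down. They were found by gene symbol in a table that names 24657 genes, and each of the 8 had 1 probe set. Brown adipose RNA was measured on Affymetrix MoGene 2.0 arrays in male mice of 35 BXD strains and of both parental strains, C57BL/6J (B6) and DBA/2J (D2). BXD strains are inbred lines bred from a cross of B6 and D2, so that each line carries a fixed mosaic of both parental genomes. All mice ate the chow diet Harlan 2018, were fasted overnight and were sacrificed at 29 weeks under isoflurane with cardiac perfusion. RNA of about 5 mice was pooled per strain and hybridised to 1 array, so there was no replicate within a strain. An error given with a level is the spread (SD) between strains, and an error given with a slope is its standard error (SE).

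Heme is built from glycine and succinyl-CoA in a pathway that starts and ends in the mitochondrion. ALAS, the first and rate-limiting enzyme, exists as ALAS1, found in all tissues, and ALAS2, the form of developing red cells. Brown fat is rich in mitochondria, whose respiratory chain uses heme in its cytochromes, and any blood left in the tissue adds transcripts of red cell origin. HMOX1 is the inducible heme oxygenase, abundant in macrophages that take up old red cells and raised in many cells by heme, metals and oxidants.

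Levels are given in array units: every array had been put on a common scale centred at 8 with a spread (SD) of 2. A level is comparable between strains for one gene but not between genes, and no fold changes are given. Ranges and differences in units are set beside those of all probe sets as a description. *Ucp1*, the uncoupling protein that defines brown fat, lay between 14.82 and 15.69 in all BXD strains. Skeletal muscle transcripts were also present, with a mean over 12 muscle genes from 9.57 in BXD65 to 13.36 in BXD97. The liver transcript *Alb*, at a median of 7.85 in the BXD strains, reached 14.96 in BXD70 and 13.93 in D2. In a pooled tissue, fewer cells of a type and less RNA per cell cannot be told apart.

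All 8 heme genes had a mean above the background limit of 7.94, the 95th percentile of 1128 olfactory receptor probe sets, as did 47.2% of all probe sets. *Alas2* passed by 0.10 units, with 20 of 35 strains above the limit. *Alas1* was at 11.90 ± 0.21 (SD, n = 35 strains), *Urod* at 11.23 ± 0.15, *Fech* at 11.44 ± 0.13 and *Ppox* at 10.49 ± 0.20. *Uros* was at 9.15 ± 0.17, *Hmox1* at 8.71 ± 0.49, *Cpox* at 8.56 ± 0.16 and *Alas2* at 8.04 ± 0.37. Under a stricter limit of 8.82, the 99th percentile of the same probe sets, 5 of the 8 remained above background, leaving out *Alas2*, *Cpox* and *Hmox1*.

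The housekeeping enzymes covered less than 1 unit each between strains. *Cpox*, coproporphyrinogen oxidase, ran from 8.32 in BXD66 over a median of 8.52 to 8.90 in BXD56. *Fech*, ferrochelatase, which inserts iron in the last step, ran from 11.20 in BXD80 over a median of 11.45 to 11.80 in BXD75. The range was 0.57 units for *Cpox*, wider than in 10.3% of all probe sets, and 0.60 units for *Fech*, wider than in 12.7%. *Uros*, uroporphyrinogen III synthase, ran from 8.89 in BXD69 over 9.13 to 9.54 in BXD98. *Urod*, uroporphyrinogen decarboxylase, ran from 10.84 in BXD69 over 11.24 to 11.54 in BXD101. *Ppox*, protoporphyrinogen oxidase, ran from 10.10 in BXD69 over 10.48 to 10.90 in BXD103. The ranges of *Uros*, *Urod* and *Ppox* were wider than in 17.9%, 25.4% and 38.0% of all probe sets. The first enzyme, *Alas1*, covered 0.96 units, from 11.42 in BXD83 over 11.92 to 12.38 in BXD69, close to the median range of 0.90 over all probe sets.

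*Alas2* and *Hmox1* covered at least 1 unit, which 40.7% of all probe sets did. *Alas2* ran from 7.45 in BXD65 over 8.01 to 8.72 in BXD90, and still covered 1.20 units without its highest and its lowest strain. *Hmox1* ran from 8.08 in BXD95 over 8.65 to 11.16 in BXD81, a range wider than in 98.8% of probe sets. Most of it came from 1 strain: the next highest, BXD61, was at 9.14, and the range without the highest and lowest strain was 1.06 units.

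**Figure D1:**
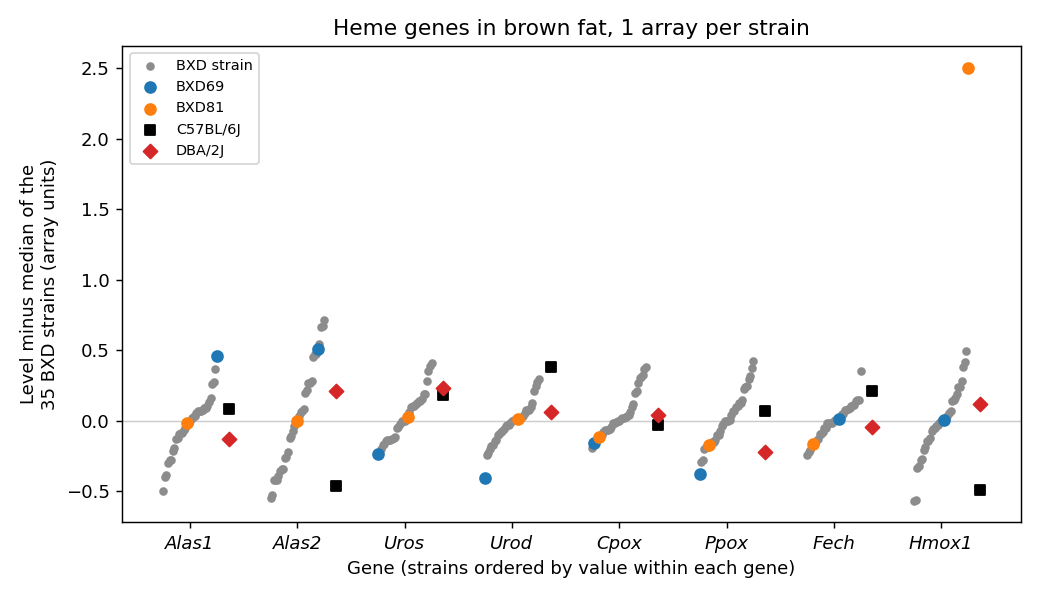
Levels of the 8 heme genes in array units, each minus its median over the 35 BXD strains. Grey points are BXD strains ordered by value within a gene, squares are C57BL/6J and diamonds DBA/2J. *Hmox1* in BXD81 lies 2.01 units above the next strain, and BXD69 is the highest strain for *Alas1* and the lowest for *Uros*, *Urod* and *Ppox*.

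The parents, with 1 array each, differed by at least 0.5 units in *Alas2* and *Hmox1*, 2 of the 8 genes, beside 13% of all probe sets. *Alas2* was at 7.54 in B6 and 8.21 in D2. *Hmox1* was at 8.16 in B6 and 8.77 in D2. In both genes D2 was higher. For the other 6 genes the parents lay within 0.31 units of each other. B6 was above D2 for *Urod* (11.62 and 11.31), *Ppox* (10.55 and 10.26), *Fech* (11.66 and 11.40) and *Alas1* (12.01 and 11.79), while *Uros* (9.31 and 9.36) and *Cpox* (8.49 and 8.55) were within 0.07 units. B6 was above the BXD range for *Urod*, and 26 of 35 BXD strains were below both parents for that gene. For *Uros*, 29 strains were below both parents. These are differences between single arrays and carry no test.

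The stretch of DNA before the start sites of both ALAS genes and of alpha globin is shown because the red cell and the general form of the first enzyme are compared below with globin. The sequences are the 120 bases upstream of the start, from RefSeq on GRCm38.p6, given 5′ to 3′ along the gene. *Alas2* lies at chrX:150547297-150547416 on the plus strand, *Hba-a2* at chr11:32296372-32296491 on the plus strand, and the upstream of the 2 *Alas1* starts at chr9:106247955-106248074 on the minus strand. Capitals mark matches on either strand to AGATAA, the core letters bound by GATA factors, and to CCACCC, the CACCC box. The 3 CACCC matches of *Alas2* share a base with their neighbours.
Alas2: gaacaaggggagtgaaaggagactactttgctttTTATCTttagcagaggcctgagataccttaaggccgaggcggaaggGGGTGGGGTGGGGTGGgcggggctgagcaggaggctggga
Hba-a2: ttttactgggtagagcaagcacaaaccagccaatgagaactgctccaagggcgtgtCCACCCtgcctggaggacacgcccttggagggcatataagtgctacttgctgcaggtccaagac
Alas1: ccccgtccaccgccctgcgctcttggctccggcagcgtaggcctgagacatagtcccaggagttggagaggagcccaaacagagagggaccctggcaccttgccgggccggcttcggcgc

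Within 250 bases upstream, AGATAA was found in 9.99% of 32851 promoters and CCACCC in 28.1%. Of the 6 heme genes with a promoter entry, AGATAA was present in *Alas2*. Other forms of the GATA letters were not counted. TGATAA, such a form, can be read on the opposite strand just upstream of *Cpox* and of the second *Uros* start. CCACCC was present in *Alas2* and, further upstream than the stretch shown, in *Alas1*. GCGCATGC, the core letters bound by nuclear respiratory factor 1 (NRF1), was found in 2.26% of promoters and, among the 6 genes, in *Alas1*, upstream of its second start. A match is a description of letters, not a site shown to be bound.

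*Alas2* varied with the globins. The transcript whose pattern was most like that of *Alas2* among named transcripts above background was *Hba-a2*, alpha globin. *Hba-a2* ran from 12.74 in BXD65 over 14.02 to 14.72 in BXD69. Strains low in *Hba-a2* were low in *Alas2*, with BXD65 the lowest for both. Across the 35 strains r was 0.83 (95% interval 0.68 to 0.91) and rho 0.85, each with a two-sided permutation p of 1e-05, the smallest that 100000 permutations can give. The interval and permutation p do not allow for the choice of *Hba-a2* as the closest transcript. The r was 0.82 without the 2 strains farthest from the *Alas2* median. In limma over 41154 probe sets, the slope was 0.93 ± 0.11 (SE) units of *Hba-a2* per unit of *Alas2*, with adjusted p = 1.08e-05. This fit called 4 transcripts, or 0.00972% of those tested. Every fit without 1 strain kept the call, at a highest adjusted p of 4.37e-05, and so did the fit on ranks, at 0.0254.

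The adult beta globin *Hbb-b1* was also called with *Alas2* (slope 0.93 ± 0.13, r = 0.78, limma adjusted p = 0.000111), although its own mean of 7.88 was below the background limit and the call was lost on ranks, at 0.0707. The other beta globin measured, *Hbb-bs*, had r = 0.57 with adjusted p = 0.917. Of the 11 red cell genes found on the array, *Hba-a2* and *Hbb-b1* were called, both upward. Among the other red cell genes, r was 0.12 for *Slc4a1*, the band 3 anion exchanger, and -0.11 for *Klf1*, an erythroid transcription factor. Of these, *Slc4a1* was above background, at a mean of 8.04. Among 11 platelet and neutrophil genes none was called with *Alas2* by limma at adjusted p under 0.05, and 2 passed an unadjusted 0.05. One of them was *Ppbp*, a platelet chemokine, with r = 0.60 and adjusted p = 0.465. Of 10 liver genes none was called with *Alas2* either, but 5 passed an unadjusted 0.05, all upward, and the median moderated t of the 10 was 1.91, beside -0.075 over all probe sets. The largest r of the 10 was 0.37, for the fibrinogen chain *Fgb* (adjusted p = 0.917), and the part of liver transcripts in the values of *Alas2* was not tested.

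The mean of the 4 red cell genes above background (*Hba-a2*, *Slc4a1*, *Hemgn* and *Bpgm*) was used as the red cell signal. It had r = 0.83 with *Hba-a2*, 1 of its 4 genes, so it is not separate from the *Hba-a2* relation above. For *Slc4a1*, *Hemgn* and *Bpgm*, r with *Alas2* was 0.12, -0.08 and 0.09. *Alas2* had r = 0.66 with this mean (95% interval 0.42 to 0.81) and rho = 0.65, with permutation p of 3e-05 and 7e-05. Without the 2 strains farthest from the median of the mean, r was 0.60. The limma adjusted p over all probe sets was 0.0846, above the threshold, and the fit called 3 transcripts, or 0.00729%. With globins alone as the predictor, *Hba-a2* among them, *Alas2* was called, at a slope of 0.92 ± 0.11 and limma adjusted p = 5.23e-06. That fit called 0.00486% of probe sets. The call for the 4-gene mean was made when BXD51, BXD55 or BXD70 was left out, at adjusted p of 0.0414, 0.0196 and 0.034. It was also made with both parents included, at 0.037, and ran to 0.606 on ranks. BXD70 had the highest *Alb* of the BXD strains, and in BXD55 *Alb* was at 9.81, also above its median of 7.85. In BXD51 it was at 8.19. *Alb* was higher than in BXD55 in BXD66, BXD85, BXD90 and BXD75 as well (11.16, 10.34, 10.11 and 9.90). Leaving out any one of these did not make the call. The part of liver transcripts in these changes was not tested.

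For *Alas1*, the enzyme of all tissues, the values were near 0. Its r with *Hba-a2* was 0.06 and its r with the red cell mean was 0.05 (95% interval -0.29 to 0.38, permutation p = 0.772). Without the 2 strains farthest from the median of the red cell mean it was 0.26. Between *Alas1* and *Alas2* r was -0.05 (95% interval -0.37 to 0.29), rho -0.11, permutation p = 0.79 and 0.522, and limma adjusted p = 0.959. The interval allows a moderate relation in either direction. The difference between the 2 genes' relations with alpha globin was not tested. None of the other 6 heme genes was called with the red cell mean either: by limma 0 of 8 heme genes passed the adjusted threshold, 1 (*Alas2*) passed an unadjusted 0.05, and 0 passed on ranks. The r values of *Uros*, *Urod*, *Cpox*, *Ppox*, *Fech* and *Hmox1* with that mean lay between -0.30 for *Urod* and 0.10 for *Hmox1*.

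**Figure D2:**
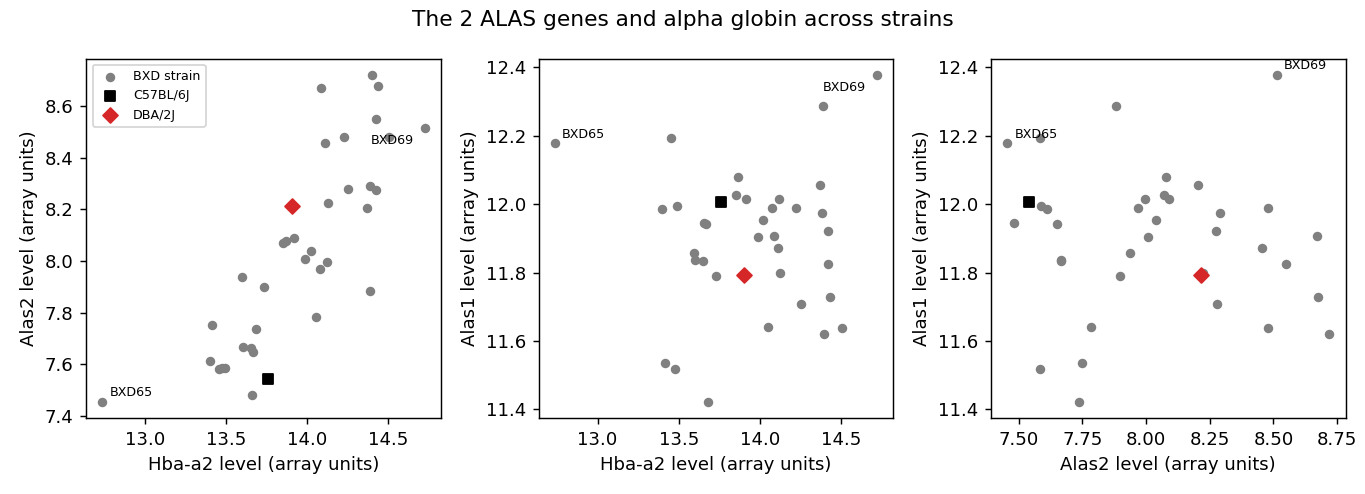
Levels of *Alas2* and *Alas1* against *Hba-a2*, and of *Alas1* against *Alas2*, all in array units, with 1 point per strain and both parents marked. *Alas2* rises with alpha globin (r = 0.83), while for *Alas1* r is near 0 with both (r = 0.06 and -0.05).

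*Alas1* had few transcripts with a like pattern. Its fit called 4 of 41154 probe sets, or 0.00972%. *Ndn*, necdin, a growth-restraining protein known from fat precursors, rose with *Alas1* (r = 0.70, adjusted p = 0.0336). *Psmd11*, a proteasome lid subunit, fell as *Alas1* rose (r = -0.75, adjusted p = 0.0318). So did *Bfar* (r = -0.72) and the fatty acid transporter *Slc27a1* (r = -0.68), both at adjusted p = 0.0442. All 4 calls could be lost by leaving out 1 strain. The *Psmd11* call was lost without BXD65, BXD68, BXD69 or BXD101, and the *Ndn* call without any of these or without BXD43 or BXD103. The calls of *Bfar* and *Slc27a1* were lost without any one of 16 and of 21 of the 35 strains, at an adjusted p of up to 0.236. The other 4 transcripts named by the rule, *Edem1*, *Ergic1*, *Mmp15* and *Cav2*, had r from 0.66 to 0.70 and were not called. Without the 2 strains farthest from the *Alas1* median, the 8 values were between 0.51 and 0.66 in size. On ranks none of the 4 calls was made, at an adjusted p of 0.447.

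Heme synthesis is known to follow the daily clock, and ALAS1 is a textbook clock output. A clock phase score was taken as the mean of 9 evening genes, such as *Per1* and *Dbp*, minus the mean of 4 morning genes, such as *Arntl*. *Alas1* had r = -0.54 with the score (95% interval -0.74 to -0.25) and rho = -0.56, with permutation p of 0.00084 and 0.00047, and r = -0.58 without the 2 farthest strains. This was the largest r of the 8 genes with the score, but over all probe sets the limma adjusted p was 0.379, and between 0.267 and 0.616 under the other settings tried. Of the 8 genes 0 were called, 1 (*Alas1*) passed an unadjusted 0.05 and 0 were called on ranks, in a fit that called 0.00243% of probe sets.

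The enzymes of the later steps were set against the tissue's mitochondrial and cell type signals. The respiratory chain mean of 21 nuclear genes above background varied by 0.28 units between strains. *Fech* had r = 0.51 with it (95% interval 0.21 to 0.72, rho = 0.45, permutation p = 0.00206 and 0.00708) and r = 0.42 without the 2 farthest strains. *Uros* had r = 0.47 (0.16 to 0.69, rho = 0.44, permutation p = 0.00486 and 0.00914) and r = 0.50 without them. Neither was called: the limma adjusted p was 0.125 for *Fech* and 0.152 for *Uros*. Of the 8 genes 0 were called, 2 passed an unadjusted 0.05 and 0 were called on ranks, and the fit called 0.956% of all probe sets. When each array was centred on its median instead, both passed, at 0.0375 and 0.0428.

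With the brown fat mean of 8 marker genes, 0 of 8 heme genes were called by limma, 0 passed an unadjusted 0.05 and 0 were called on ranks, beside 1.97% of all probe sets. *Fech* had the largest r, 0.35 (rho = 0.33, adjusted p = 0.346). This mean did not follow its 8 markers alike: their r with it ran from -0.15 for *Ppara* and 0.175 for *Ebf2* to 0.84 for *Elovl3*. The counts therefore describe this mean and not each marker. With the muscle mean the counts were also 0, 0 and 0, beside 1.85% of all probe sets, and the r values lay between -0.24 for *Ppox* and 0.19 for *Cpox*. With the mean of 8 macrophage genes, 0 were called, 2 (*Urod* and *Fech*) passed an unadjusted 0.05 and 0 were called on ranks, beside 3.52%. *Urod* had r = -0.40 (rho = -0.46, permutation p = 0.0172 and 0.00626, adjusted p = 0.214) and *Fech* r = -0.38 (rho = -0.34, permutation p = 0.0256 and 0.0483, adjusted p = 0.283). Without the 2 farthest strains these were -0.45 and -0.24. In all, 48 relations of a heme gene with a list were computed.

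The 8 genes were then set against each other across strains. None of the 28 pairs was called in both of its limma fits at adjusted p under 0.05, and none on ranks, while 5 pairs passed an unadjusted 0.05 in both. *Uros* and *Urod*, which act in succession, had r = 0.44 (rho = 0.45, permutation p = 0.00839 and 0.00671, adjusted p = 0.242 and 0.34). *Urod* and *Cpox*, the next step, had r = 0.40 (rho = 0.26, permutation p = 0.0174 and 0.13, adjusted p = 0.319 and 0.269). *Alas1* and *Cpox* had r = -0.47 (rho = -0.34, permutation p = 0.0047 and 0.0462, adjusted p = 0.367 and 0.155). *Alas2* and *Urod* had r = -0.36 (rho = -0.34, permutation p = 0.0317 and 0.0491, adjusted p = 0.917 and 0.347). *Fech* and *Hmox1*, the last step and the breakdown enzyme, had r = -0.41 (rho = -0.44, permutation p = 0.0209 and 0.00846, adjusted p = 0.255 and 0.793). Without the 2 strains farthest from the median of the predictor, the r of *Uros* and *Urod* was 0.27 or 0.41, that of *Urod* and *Cpox* 0.34 or 0.22, that of *Alas1* and *Cpox* -0.33 or -0.46, that of *Alas2* and *Urod* -0.42 or -0.25, and that of *Fech* and *Hmox1* -0.43 or -0.44, depending on which gene was the predictor.

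**Figure D3:**
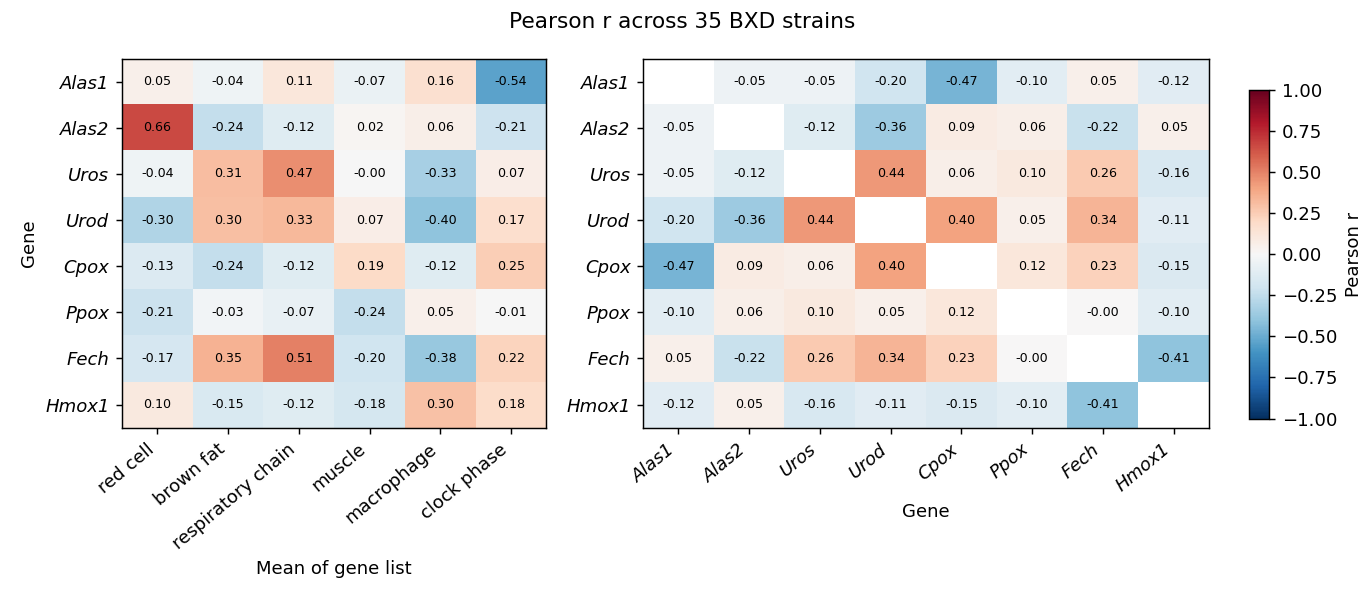
Pearson r over the 35 BXD strains between each heme gene (rows) and the mean of each gene list (left) or each other heme gene (right), on a colour scale from -1 to 1. The largest r on the left is 0.66, for *Alas2* with the red cell mean, which contains *Hba-a2*. No pair on the right is beyond 0.47 in size.

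One strain, BXD69, stood at the edge for many of the synthesis genes. It had the highest *Alas1*, exceeding the median of the remaining 34 by 0.46 units. It had the lowest *Uros*, *Urod* and *Ppox*, at 0.25, 0.41 and 0.38 units under the median of the others, with *Cpox* second lowest. Outside this set, *Alad*, aminolevulinate dehydratase, the second enzyme of heme synthesis, ranked 4 from the top (13.86 against a median of 13.60). *Fech* and *Hmox1* were in the middle of the range there. BXD69 was the highest strain for 2.68% and the lowest for 3.77% of the 19436 probe sets above background, and 11 strains had more such extremes. The strain also had the highest *Hba-a2* and a muscle mean of 13.06. It was singled out after its values were seen, and the part of blood or muscle in these values was not tested.

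*Urod*, *Cpox* and *Fech* each had over 100 transcripts with a like or opposite pattern. With *Urod*, 118 probe sets were called (0.287%). Those most like it were *Nadk2*, the mitochondrial NAD kinase (r = 0.74), *Stxbp2* (r = 0.73), both at adjusted p = 0.00721, the growth kinase *Mtor* (r = 0.72), *Acy1* (r = 0.71) and *Pdk1*, which restrains pyruvate dehydrogenase (r = 0.70). The transcripts most opposed to *Urod* were *Fli1*, an endothelial and blood cell transcription factor (r = -0.74, adjusted p = 0.00891), *Tspan13* (r = -0.73) and *Msn*, moesin (r = -0.69). The calls of *Mtor*, *Tspan13* and *Msn* were lost without BXD69, at adjusted p of 0.0732, 0.0739 and 0.0739. Without the 2 strains farthest from the *Urod* median, the r values of these 8 were between 0.57 and 0.73 in size. On ranks none of the 8 was called, at an adjusted p of 0.148.

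With *Fech*, 110 probe sets were called (0.267%). The 5 most like it were *Mtx2*, a mitochondrial outer membrane protein (r = 0.74), *Gatc*, a subunit of a mitochondrial amidotransferase that charges transfer RNA (r = 0.72), *Sec14l4* (r = 0.71), the racemase *Amacr* (r = 0.71) and *Mmab*, which makes the mitochondrial form of vitamin B12 (r = 0.71), all at adjusted p = 0.0135. These 5 were called without any 1 strain, at up to 0.0449. Opposed to *Fech* were *Ppfibp1* (r = -0.72, adjusted p = 0.0139) and *Fam189a2* (r = -0.70, adjusted p = 0.0183, lost without BXD80 at 0.0598), while *Hnrnpf* (r = -0.68) was not called, at 0.0547. Without the 2 farthest strains the 8 r values were between 0.57 and 0.73 in size. On ranks *Gatc* and *Mmab* were called, and the other calls were lost, at 0.0507 to 0.065.

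With *Uros*, 7 probe sets were called (0.017%). *Hint3* (r = 0.75, adjusted p = 0.0177) and the mitochondrial ribosomal proteins *Mrps18b* (r = 0.74, adjusted p = 0.0192) and *Mrpl53* (r = 0.75, adjusted p = 0.0399) were among them, as was *Swi5* (r = 0.71, adjusted p = 0.042). The calls of *Hint3* and *Mrps18b* were lost without BXD61, BXD87, BXD90 or BXD101, and those of *Mrpl53* and *Swi5* without any one of 14 and of 18 strains. *Cops8* (r = 0.72) and the 3 most opposed transcripts, *Tsc22d4*, *Zmiz1* and *Cdh13* (r from -0.63 to -0.61), were not called. Without the 2 farthest strains the 8 values were between 0.55 and 0.71 in size. On ranks none of the 4 calls was made, at 0.267.

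With *Cpox*, 103 probe sets were called (0.25%). The most like it were *1500012F01Rik* (r = 0.73, adjusted p = 0.0079), the lysophospholipase *Pnpla7* (r = 0.72), *Mia3* (r = 0.71), *0610011L14Rik* (r = 0.70) and *Brix1*, a ribosome assembly factor (r = 0.70). The most opposed included *Fbln7*, a fibulin of the extracellular matrix (r = -0.76, adjusted p = 0.00578), and *Ppp4r1* (r = -0.71). The calls of *1500012F01Rik* and *Fbln7* were made without any 1 strain, while the other 5 were lost without BXD83, at up to 0.0993, and all but *Pnpla7* also without others among BXD43, BXD56, BXD66, BXD69 and BXD99. Without the 2 farthest strains these 7 values were between 0.61 and 0.74 in size. On ranks none of the 7 was called, at adjusted p from 0.0886 to 0.109.

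*Ppox*, the enzyme before ferrochelatase, was followed by transcripts named for its neighbours on the chromosome. Its fit called 26 probe sets (0.0632%). In RefSeq gene order on GRCm38.p6, 9 of these bore the names of genes within 50 protein-coding genes of *Ppox* on chromosome 1, out of 137 probe sets there, or 6.57%. The 9 bore 6 gene names, and 4 of them were named *Copa*, a symbol given to 37 probe sets and uncertain, as described below. Of the other 17 called probe sets, 3 had the name of a protein-coding gene elsewhere and 14 had none. For the other heme genes, 0 of 86 to 162 probe sets in the same window were called. Their fits called 0.00972% to 0.287% of all probe sets, and at such shares windows of this size would hold few calls or none. The window was chosen after the pattern was seen, and the share is a description.

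*Pfdn2*, a prefoldin subunit that lies 5 genes away, was most like *Ppox*. It ran from 8.71 over 9.32 to 9.54, with r = 0.75 (95% interval 0.55 to 0.87), rho = 0.83, permutation p of 1e-05 for both, and limma adjusted p = 0.00192. The intervals and permutation p in this paragraph do not allow for the choice of transcripts by their r. *Dusp23*, a phosphatase 43 genes away, ran from 9.26 over 9.81 to 10.24, with r = 0.72 (0.51 to 0.85), rho = 0.73 and adjusted p = 0.00192. Both calls were made without any 1 strain. *Ncstn*, nicastrin, 24 genes away, had r = 0.66 and adjusted p = 0.0338. *Cnih4*, 132 genes away, had r = 0.66 and adjusted p = 0.0223, lost without BXD48, BXD56, BXD85 or BXD89. In the opposite direction, *Sdhc*, a succinate dehydrogenase subunit 10 genes away, had r = -0.67 and adjusted p = 0.0474. The calls of *Ncstn* and *Sdhc* were lost without any one of 15 and of 24 strains. Without the 2 strains farthest from the *Ppox* median, these 5 values were between 0.61 and 0.73 in size. On ranks *Pfdn2* was called, and the other calls were lost, at 0.0644 to 0.129. *Onecut3*, also opposed to *Ppox* (r = -0.63), was not called.

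The parental arrays differed in the same direction as these relations. B6, with the higher *Ppox*, had the higher *Pfdn2* (9.54 and 9.20 in D2), *Dusp23* (9.97 and 9.39), *Ncstn* (10.80 and 10.66) and *Cnih4* (9.91 and 9.29), and the lower *Sdhc* (13.11 and 13.19). The differences of *Ncstn* and *Sdhc* were below 0.18 units, the median absolute parental difference over all probe sets. All are differences between single arrays and carry no test. BXD strains inherit neighbouring genes in blocks from one parent. Genotypes were not used here, and the part of inheritance in these relations was not tested. The table also gives the symbol *Copa*, a gene of the same stretch, to 37 probe sets with means from 6.86 to 14.15. Of them 4 were called with *Ppox*, while the brightest had r = -0.03, so that name is uncertain.

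**Figure D4:**
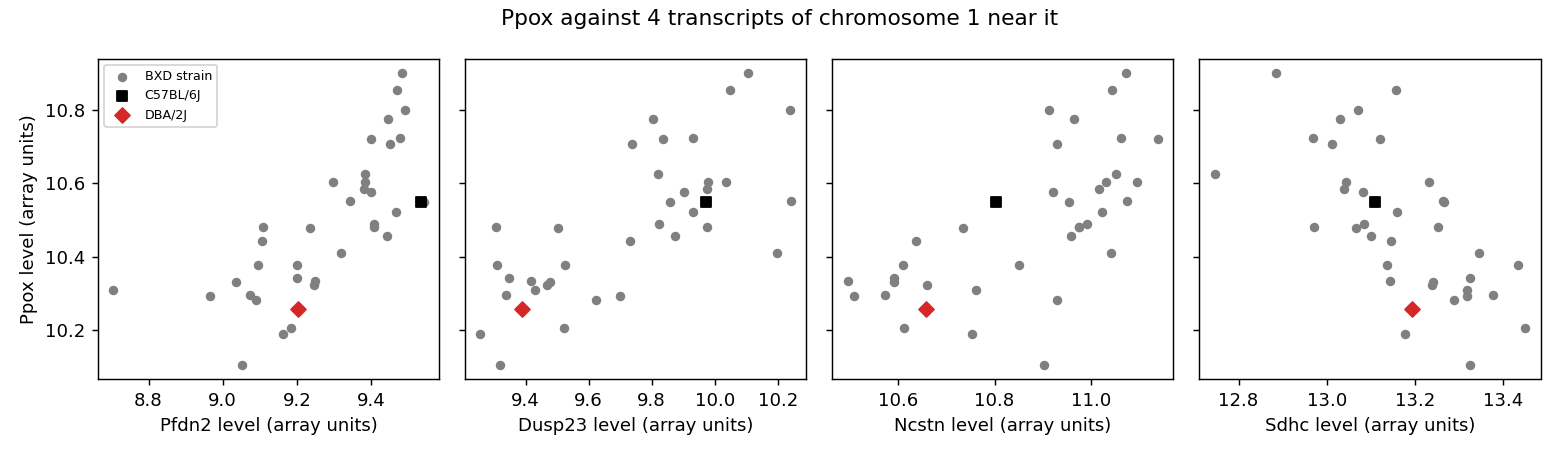
*Ppox* against 4 transcripts named for genes near it on chromosome 1, in array units, with 1 point per strain and the parents marked. *Ppox* rises with *Pfdn2*, *Dusp23* and *Ncstn* (r from 0.66 to 0.75) and falls with *Sdhc* (r = -0.67). The *Ppox* values are the same in every panel, with B6 above D2.

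A single strain, BXD81, set the range of *Hmox1*. It was at 11.16, while the other 34 lay between 8.08 and 9.14 with a median of 8.64. No other probe set above background was higher in BXD81 by as wide a gap to the next strain: the next was *Pabpn1*, with a gap of 0.56 against 2.01 for *Hmox1*. A second *Ftl1* probe set (gap 0.50), *Mt1* (0.48) and the cytochrome P450 gene *Cyp2b10* (0.44) followed among the first 10. BXD81 was the highest strain for 2.67% and the lowest for 2.11% of probe sets above background, and 23 strains had more such extremes. The other 7 heme genes in BXD81 were within 0.17 units of the median of the other strains.

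Genes that oxidants, metals or heme are known to raise together with *Hmox1* were then read in BXD81, from lists made once its value was known and without a test. Both metallothioneins, metal-binding proteins, were highest in this strain: *Mt1* was at 12.92 against 11.62 to 12.44 in the others, and *Mt2* at 12.95 against 11.54 to 12.72. Of 10 genes known as targets of the regulators NRF2 or BACH1, 4 were highest in BXD81. These were *Cbr1*, a carbonyl reductase (11.82 against 10.35 to 11.42), *Gclc*, which starts glutathione synthesis (10.99 against 10.13 to 10.85), *Ftl1*, ferritin light chain (14.81 against 13.79 to 14.65), and *Srxn1*, sulfiredoxin (10.96 against 10.29 to 10.92). *Fth1* and *Osgin1* lay under the median of the others, by 0.11 and 0.07 units. *Nqo1* and *Slc7a11* were not above background. Of 5 heat shock genes none was among the 5 highest strains, and *Hsph1* was at its lowest there (8.49 against 8.52 to 10.04). The array of BXD81 is 1 pool, so whether 1 mouse or all of them carried the signal cannot be told apart.

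The macrophage mean in BXD81 was 9.91, near the median of 9.998, with *Cd68* ranked 3 and *Mrc1* ranked 34 from the top of the 35 strains. Over all 35 strains *Hmox1* had r = 0.30 with the macrophage mean (95% interval -0.04 to 0.57), rho = 0.48, permutation p of 0.0861 and 0.00364, and limma adjusted p = 0.393. Without BXD81, left out in turn like each other strain but singled out after its value was seen, r was 0.68 (0.44 to 0.83), rho 0.55, permutation p 1e-05 and 0.00082, and r 0.55 without the 2 farthest strains. The slope was then 0.44 ± 0.08 units of *Hmox1* per unit of the mean, and *Hmox1* was called at adjusted p = 0.00113, in a fit that called 3.43% of probe sets. Of the 8 macrophage genes above background, r with *Hmox1* over the 34 strains was from 0.47 for *C1qc* to 0.68 for *Lyz2*, and over all 35 from -0.04 for *Mrc1* to 0.56 for *Cd68*. The listed genes below background had lower r over the 34 strains: 0.09 for *Cd163*, 0.30 for *Vsig4* and -0.27 for *Marco*.

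**Figure D5:**
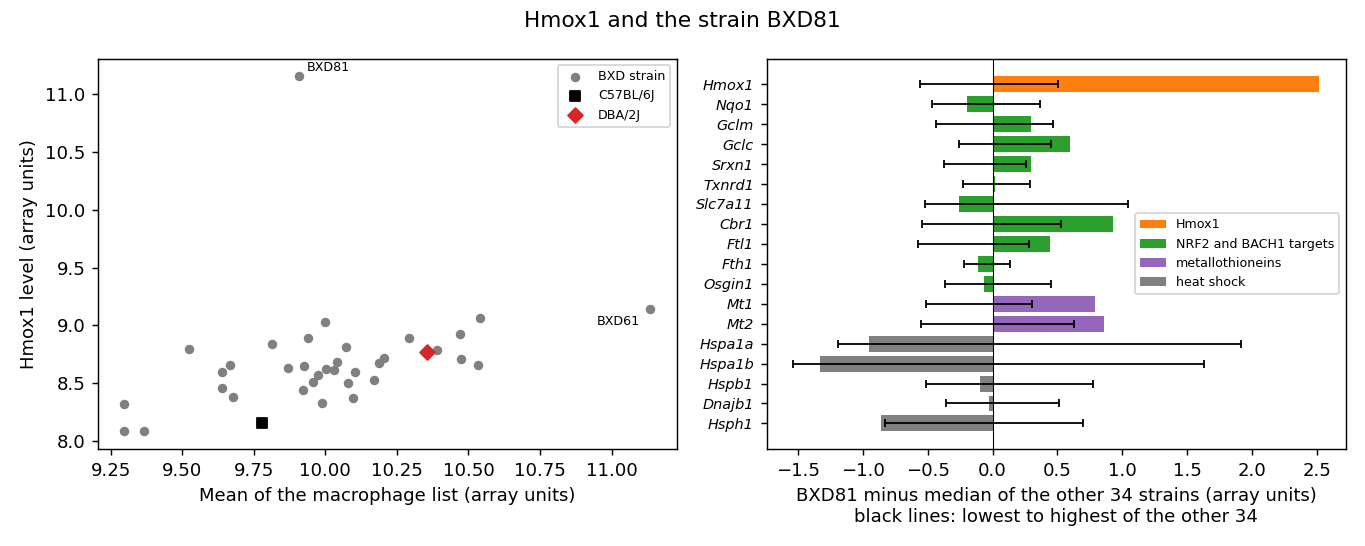
Left, *Hmox1* against the mean of the macrophage list in array units, with 1 point per strain; BXD81 lies apart, and the other 34 BXD strains rise together (r = 0.68). Right, BXD81 minus the median of the other 34 strains for *Hmox1* and for 3 lists made once that strain had been noticed, with black lines from the lowest to the highest of the others; *Mt1*, *Mt2*, *Cbr1*, *Gclc*, *Ftl1* and *Srxn1* pass the highest other strain.

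The same strain set what else followed *Hmox1*. Over 35 strains the fit called 5 probe sets (0.0121%), and over 34 strains 182 (0.442%). *Cab39l*, opposed to *Hmox1* at r = -0.76 and adjusted p = 0.00463, was not called without BXD81 (r = -0.50, adjusted p = 0.186), and its rho over all 35 was -0.41, with adjusted p = 0.516 on ranks. *Xylt2* went from r = 0.59 to 0.17. *Clec7a*, the beta-glucan receptor dectin 1 of myeloid cells, had r = 0.62 (adjusted p = 0.138) with BXD81 and 0.71 (adjusted p = 0.00852) without it. *Grn*, progranulin, went from r = 0.59 (adjusted p = 0.219) to 0.67 (adjusted p = 0.019). *Tcirg1* had r = 0.55 without BXD81 and was not called, at 0.0939. The opposed transcripts *Fdxacb1* and *Homer1* (r = -0.60 and -0.60 over 35 strains) were not called with or without BXD81. The pair *Fech* and *Hmox1* stayed uncalled without BXD81, at r = -0.45 (permutation p = 0.00711) and adjusted p = 0.289. With the respiratory chain mean, *Hmox1* without BXD81 had r = -0.52 and adjusted p = 0.0866.

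*Alad* was not called with any of the 8 heme genes. It covered 1.67 units, from 12.28 in BXD79 to 13.94 in BXD49, with 12.52 in B6 and 13.69 in D2. Of 3 other breakdown genes, *Hmox2*, the constant heme oxygenase, and the biliverdin reductases *Blvra* and *Blvrb*, none was called with a heme gene. The lowest adjusted p was 0.0969, for *Hmox2* with *Fech* (r = 0.56), and *Hmox2* had r = -0.04 with *Hmox1*.

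Of 14 genes that carry heme or its precursors, 1 was called with *Urod* and 1 with *Cpox*, both upward, beside 0.287% and 0.25% of all probe sets. None was called with the other 6, whose fits called 0.00972% to 0.267% of all probe sets. *Pgrmc1*, a heme-binding membrane protein, rose with *Urod* (r = 0.66, adjusted p = 0.027), and the heme exporter *Flvcr1*, listed under an older name, rose with *Cpox* (r = 0.61, adjusted p = 0.0345). The first call was lost without BXD45, BXD56, BXD69 or BXD85, the second without any one of 8 strains, and neither was made on ranks (0.148 and 0.133). Of 12 iron supply genes and 7 regulators of heme genes, none was called with any heme gene. At the shares over all probe sets, lists of 7 to 14 genes would seldom hold a call. The median moderated t of the transport list was 0.61 with *Urod* and 0.21 with *Cpox*, beside 0.02 and -0.12 over all probe sets. Of the 8 brown fat markers, *Elovl3*, a fatty acid elongase that varied from 8.54 in BXD69 to 14.44 in BXD87, rose with *Urod* (r = 0.59, adjusted p = 0.0401, lost without any one of 12 strains, BXD69 among them, and on ranks at 0.242). *Ucp1* was not called with any heme gene. Its largest r was with *Cpox*, at -0.57 (unadjusted p = 0.000326, limma adjusted p = 0.0704), and that of *Dio2*, the deiodinase that activates thyroid hormone in brown fat, with *Cpox* was -0.51 (adjusted p = 0.0963). With the other 7 heme genes the r of *Ucp1* lay between -0.16 for *Urod* and 0.16 for *Fech*.

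Some other heme-related genes of the lists were called with the tissue means. With the brown fat mean, the mitochondrial carrier *Slc25a39* (r = 0.74, limma adjusted p = 0.000773), the coactivator *Ppargc1a* (r = 0.68, adjusted p = 0.00187), and *Cox15* and *Cox10*, which turn heme into the heme A of cytochrome oxidase (r = 0.78 and 0.65, adjusted p = 0.000269 and 0.0064), were called, all upward. With the respiratory chain mean, *Abcb10*, an inner membrane transporter needed for heme synthesis in red cell precursors, was called (r = 0.70, adjusted p = 0.0094). These 5 calls were made without any 1 strain, but that of *Abcb10* was lost on ranks, at 0.061. With the macrophage mean, *Pgrmc1* (r = -0.56) and *Clpx*, a mitochondrial unfoldase that acts on ALAS (r = -0.57), fell, both at adjusted p = 0.0211, and both calls were lost without BXD69, that of *Pgrmc1* also without BXD61 and on ranks (0.0548). With the muscle mean, the iron-sulfur scaffold *Iscu* fell (r = -0.63, adjusted p = 0.0288, lost without BXD81, BXD89, BXD90, BXD95 or BXD97, and on ranks at 0.0762). Whether these genes differ from the 8 in their relation to a list was not tested.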

How the data were processed

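Affymetrix MoGene 2.0 arrays of brown adipose RNA pools were deposited by the authors as 1 table of 41345 probe sets by 37 arrays. The deposited values are a score: every array is centred at 8 with an SD of 2. The labels name Affymetrix Expression Console. The summary method and log base are not given in the sources used here. The design assumed log2 or rescaled values, and limma was kept for the rescaled score.

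After removing 190 control probe sets, 41155 remained. Heme genes and lists used the brightest probe set per symbol. Of 140 list genes, 136 were found, and 7 symbols over all lists were matched through RefSeq synonyms. List means used genes above background. limma 3.58.1 in R 4.3.3 regressed every probe set on a list mean or a heme gene over 35 BXD strains, with Benjamini-Hochberg adjustment over all probe sets, leaving out those in the predictor, and was tested on simulated data. Correlations used 100000 two-sided permutations (Python 3.11.15), unadjusted for the number of relations. Named transcripts were, per heme gene, the 5 highest and 3 lowest r among named transcripts above background, plus all heme and list genes. Arrays per strain numbered 1, which limits precision. The genes, lists and tests were chosen with earlier results of these data known. Results of some list genes and named transcripts are not reported here.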

Additional observations from a re-analysis of the deposited data

How the results depend on the processing

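Counts of heme genes under 12 questions were recomputed under 472 alternatives, of which 463 left the count within 1.5 times that reported. For the red cell mean the count went from 0 to 1 (*Alas2*) with both parents included, with centring on the median and with globins alone, and ranged from 0 to 1 over fits without 1 strain (1 without BXD51, BXD55 or BXD70). For the respiratory chain mean it went from 0 to 2 (*Uros* and *Fech*) with centring on the median. For the macrophage mean it ranged from 0 to 1 over fits without 1 strain (*Hmox1*, without BXD81). The count above background went from 8 to 5 under the 99th percentile limit. Causes of these changes were not tested. Of 351 alternatives for the 39 called relations with a named transcript, 279 kept the call, 72 lost it and none changed sign. *Alas2* with *Hba-a2* lost its call in one, with the red cell mean, which contains *Hba-a2*, as a second predictor (adjusted p = 0.0565). No paired analysis was possible because each strain has 1 array and no comparison is between groups with shared replicate numbers. The means of *Alas2* and *Cpox* were the closest of the 8 to the background limit, at 0.10 and 0.62 units above it, and with 1 array per strain the precision of single values was not measured.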
